A study of Homo sapiens with 4 samples.

Results

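The TGF-beta and BMP pathway was followed here through 44 genes listed by name and role: ligands, a protease, receptors, SMADs, inhibitors of the pathway, ID target genes and secreted antagonists, out of 26364 gene symbols in the count table. Messenger RNA was counted by sequencing in Ishikawa cells, an established line from a human endometrioid adenocarcinoma, in which ESR1, the gene for estrogen receptor alpha, carries the Y537S mutation of its ligand-binding domain. The study asked how the mutant receptor affects gene expression. All 4 libraries used here were mutant: 2 received 0.1% DMSO, the vehicle, and 2 received 10 nM estradiol (E2), each for 8 h. All cells had spent at least 5 days in medium without phenol red and with charcoal-stripped serum, which removes steroid hormones, and the medium was renewed 1 day before treatment. Cells with the unmutated receptor were not analysed here, so no value below measures the effect of the mutation.

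The labels name 2 mutant clones, each with a DMSO and an E2 library. The count columns carry the tags A4 and B212 in place of clone numbers, so the tags could not be tied to clone 1 and clone 2, and libraries are named here by tag and treatment. Each tag is a single mutant line with 1 library per treatment, and nothing in the labels says that libraries were repeated from separate cultures. A difference between the tags therefore describes these lines. The p-values rest only on the spread between these 4 libraries, which the fits share in part across genes.

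TGF-beta, activin and nodal ligands bind paired type I and type II receptor kinases that phosphorylate SMAD2 and SMAD3, whereas BMP ligands act through SMAD1, SMAD5 and SMAD9; both branches share SMAD4. The inhibitory SMADs, SMAD6 and SMAD7, and the ID genes are classical direct targets, so that the pathway switches on its own brakes. In the endometrium these ligands are known for roles in stromal decidualization, tissue repair and growth restraint of the epithelium.

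The libraries held 71575816 to 85222856 counts and 18358 to 18861 detected genes. Levels are given as CPM, counts per 1000000 counts of the library, with library sizes corrected for composition by TMM (trimmed mean of M values). ESR1 itself stood at 110 CPM with DMSO and 97.0 CPM with E2 in A4, and at 107 and 86.5 CPM in B212. It was lower with E2 in both tags, and was called when E2 and DMSO were compared within each tag (log2 fold change -0.25, SE 0.070, adjusted p = 0.0330, edgeR). Gene counts do not show which allele was transcribed. All 8 listed epithelial markers had at least 10 counts in every library and together made 2233 to 2968 CPM. The 7 fibroblast markers summed to 94.6 to 131 CPM with the tag A4 and 35.4 to 43.3 CPM with B212, nearly all of it COL1A1, and the part of this difference in the results below was not tested. In bulk RNA, fewer cells of a type and less RNA per cell cannot be told apart.

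Of the 44 genes, 40 passed the filter on low counts. The other 4 were ligand genes. INHA, the inhibin alpha subunit, had 1 to 6 counts per library. BMP2 and INHBA, the activin beta A subunit, had at most 1 count. BMP7 had 0 counts in all 4 libraries, and a count of 0 allows up to 3 counts per library, or 0.0352 to 0.0410 CPM. The plot of levels by library shows the other 40.

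**Figure D1:**
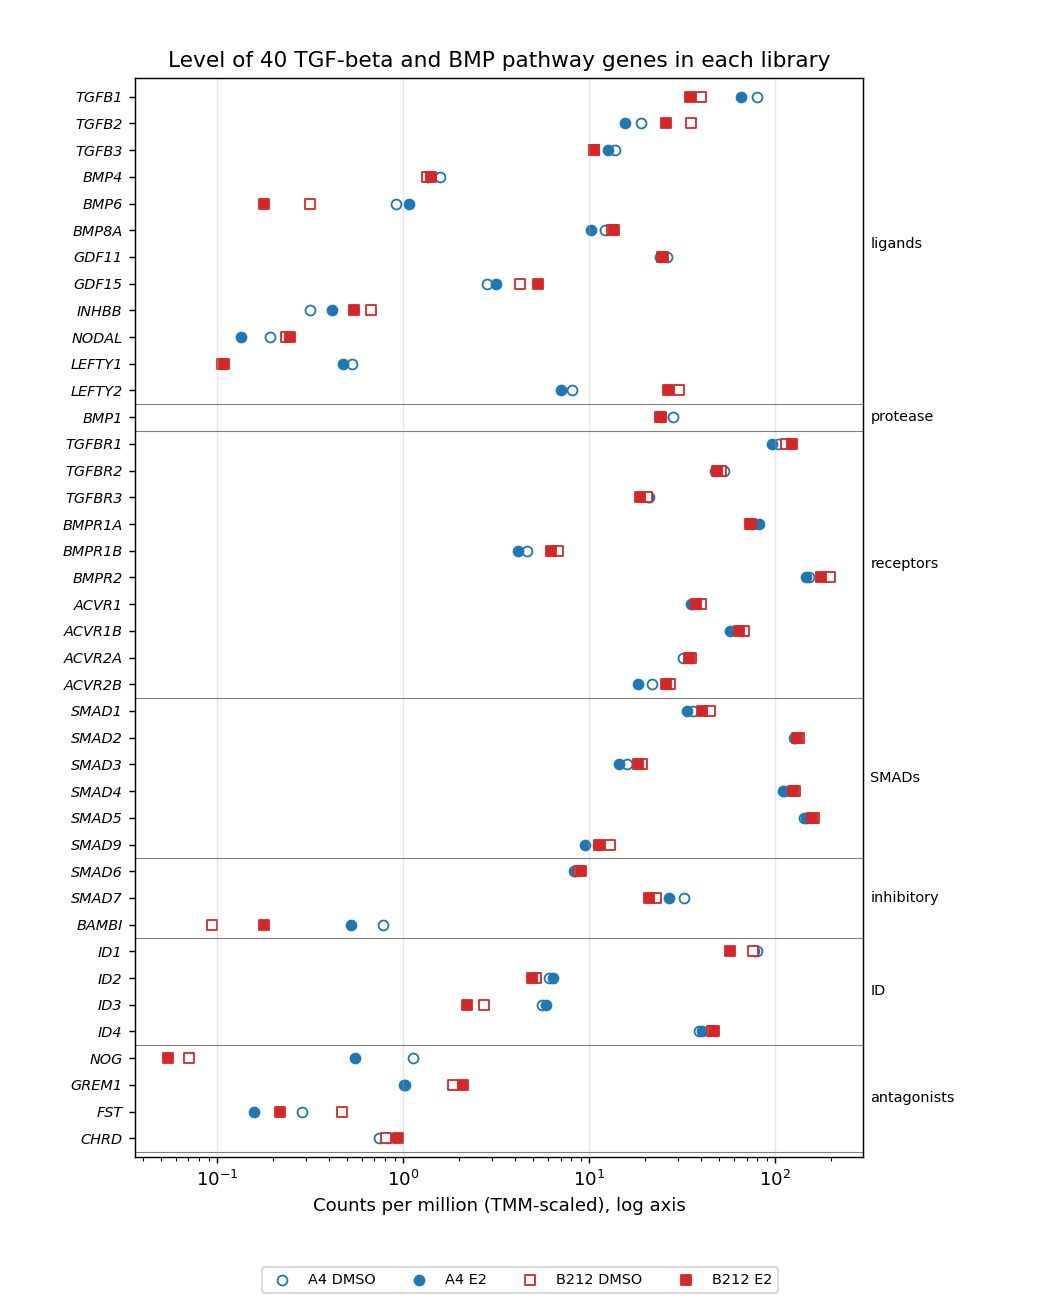
Level of each of the 40 genes in the 4 libraries, in CPM on a log axis, grouped by role; circles are A4, squares are B212, open symbols DMSO and filled symbols E2. Symbols of 1 tag lie close together for most genes, while LEFTY2, ID3, NOG, BAMBI, BMP6 and LEFTY1 separate by tag.

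Estradiol left most of the pathway within a narrow band. Compared by treatment alone, without regard to tag, E2 and DMSO differed in 0 of the 40 genes, and in 0 of all 15599 genes tested (0%), by edgeR's quasi-likelihood test with an adjusted p threshold of 0.05. Without adjustment the same threshold was passed by 0 of 40 and 150 of 15599 genes. In simulated counts with tag differences as measured, this fit recovered 0 of 200 genes changed by 1 on the log2 scale. A count of 0 from this fit therefore does not show that E2 changed no gene. With the tag as a block, so that each E2 library is compared with the DMSO library of its own tag, TGFB1 and TGFB2 fell and no gene of the 40 rose. That is 2 of 40 genes, or 5%, against 9.56% of all genes tested. In the lower direction alone all genes gave 3.44%, and in the higher direction 6.13%.

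TGFB1 encodes the prototype TGF-beta ligand. In the A4 libraries it stood at 80.0 CPM with DMSO and 65.0 CPM with E2, and in the B212 libraries at 39.7 and 34.7 CPM. Both tags were lower with E2, but the groups overlapped, because A4 with E2 lay above B212 with DMSO. With the tag as a block, the log2 fold change was -0.25 (SE 0.075, n = 2 per group, adjusted p = 0.0418, edgeR). The same fit gave an adjusted p of 0.114 once a smooth dependence on the length and GC content of transcripts was removed, 0.0628 with DESeq2 size factors and 0.101 with the DESeq2 test. HNRNPUL1, which overlaps TGFB1 on the opposite strand, had a log2 fold change of -0.22 in this fit. The strand setting of the counting is not given in the sources used here, so it is not known how reads where these genes overlap were assigned.

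TGFB2, another TGF-beta isoform, ran from 19.1 CPM with DMSO to 15.6 CPM with E2 in A4, and from 35.0 to 25.8 CPM in B212. Again both tags were lower with E2 and the groups overlapped. Its log2 fold change with the block was -0.37 (SE 0.085, n = 2 per group, adjusted p = 0.0116, edgeR), and it passed the threshold in each of the 5 other blocked fits. Without the block the log2 value was -0.38 with an adjusted p of 1.00. TGFB3, the remaining isoform, had 13.8 and 12.6 CPM in A4 and 10.6 and 10.6 CPM in B212, a log2 value of -0.07 with an adjusted p of 0.694 with the block (edgeR).

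The other 38 genes did not pass the threshold with the block, and 36 of them lay within 0.25 on the log2 scale in either direction. The 2 exceptions were secreted antagonists near the lower limit of detection. FST, the activin antagonist follistatin, had 21 and 13 counts in A4 and 40 and 16 counts in B212, DMSO before E2. NOG, the BMP antagonist noggin, had 83 and 45 counts in A4 and 6 and 4 counts in B212. The log2 values with the block were -0.99 for FST (adjusted p = 0.121, edgeR) and -0.95 for NOG (adjusted p = 0.107, edgeR). CPM values of the FST libraries did not overlap between treatments, those of NOG did.

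ID1, an inhibitor of basic helix-loop-helix factors and a direct BMP target, had 79.9 and 76.3 CPM in A4 and 75.5 and 57.3 CPM in B212. Only the B212 library with E2 stood apart from the other 3. The log2 value with the block was -0.23 (SE 0.080, adjusted p = 0.0746, edgeR). It passed the threshold with the length and GC trend removed (-0.30, adjusted p = 0.0220; 2 of the 40 genes, TGFB2 and ID1, were called there, both lower, against 4.55% of all genes, 2.90% higher and 1.65% lower) and with plain library sizes (-0.25, adjusted p = 0.0339), and it was not called in the other 3 blocked alternatives. SMAD7, the inhibitory SMAD induced by TGF-beta, had 32.3 and 26.7 CPM in A4 and 22.8 and 20.9 CPM in B212, a log2 value of -0.20 (adjusted p = 0.136, edgeR). LEFTY2, a nodal inhibitor, had a log2 value of -0.20 (adjusted p = 0.169, edgeR).

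No receptor or SMAD gene was called for E2. Over the 10 receptor genes, log2 values with the block ran from -0.17 for ACVR2B to 0.06 for BMPR1A, the type I BMP receptor also called ALK3. Over the 6 receptor-activated and common SMADs they ran from -0.21 for SMAD9 to 0.00 for SMAD5. SMAD4, the shared partner, had 111 and 110 CPM in A4 and 128 and 124 CPM in B212, and its treatments differed less than its tags.

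As a set, the 40 genes had a median log2 value of -0.099 with the block, against -0.0081 for all genes tested. With the length and GC trend removed as well, these medians were -0.069 and -0.013. Within the tags, 3 genes were higher with E2 in both, 19 lower in both and 18 opposite in sign. Of all 15599 genes tested, 5190 were higher in both and 5743 lower in both. Opposite signs made 45% of these genes and 29.8% of all genes tested. CPM values of the E2 and DMSO libraries did not overlap for 4 of the 40 genes (10.0%), against 25.0% of all genes. These were TGFBR2, the TGF-beta type II receptor, ACVR1B, an activin type I receptor, FST and CHRD, the BMP antagonist chordin, and none of them passed the test. CHRD was the only 1 of the 4 with higher values in E2.

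**Figure D2:**
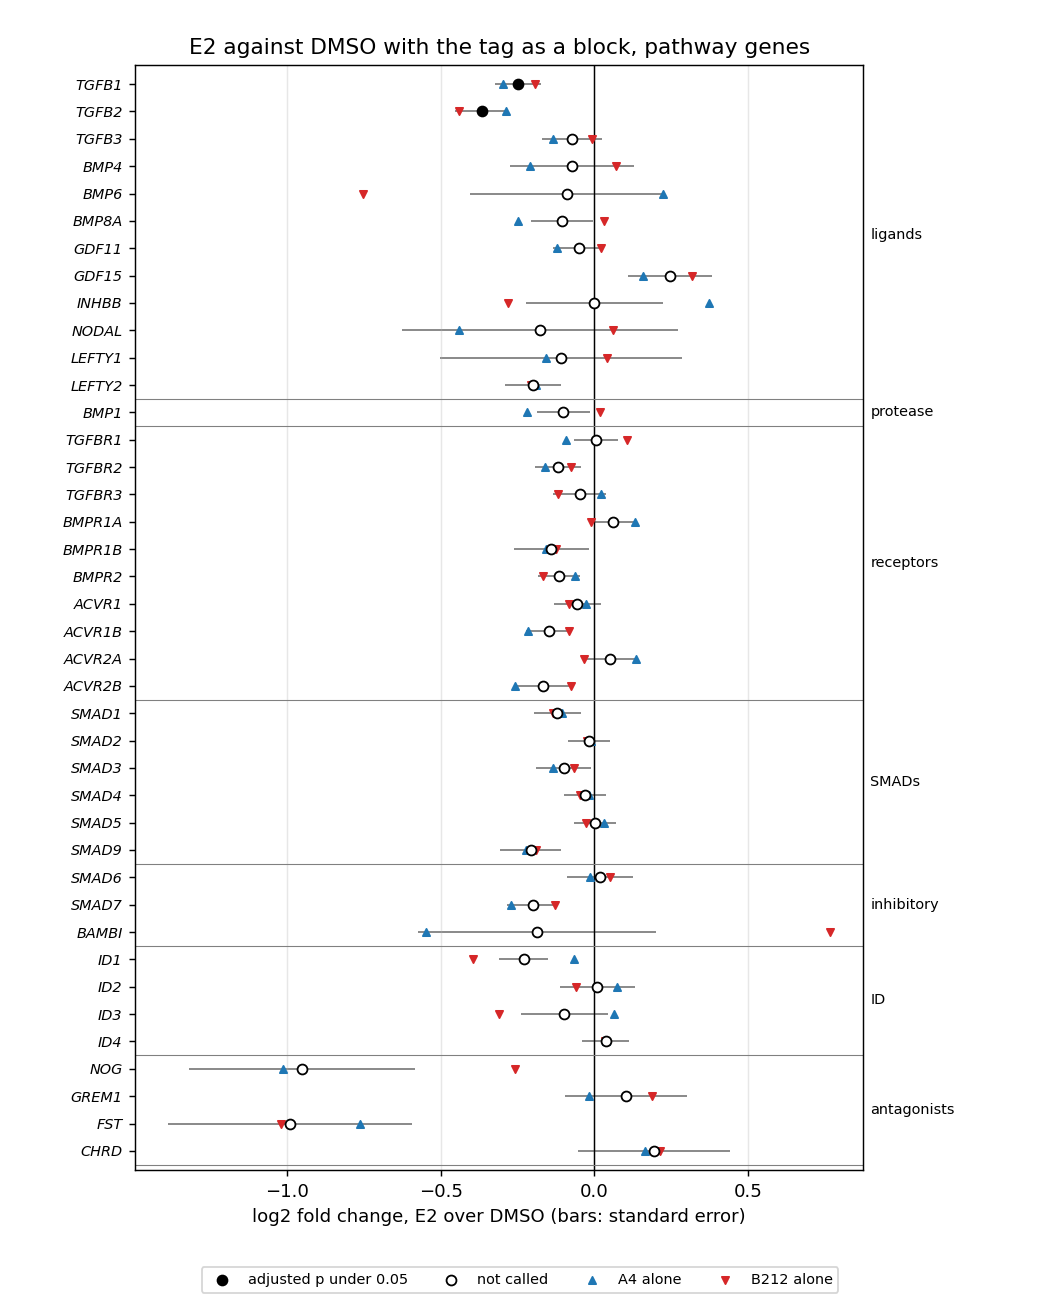
log2 fold change of E2 over DMSO for the 40 genes: circles with standard errors are the blocked fit, filled where the adjusted p was under 0.05, and triangles are the differences within each tag. TGFB1 and TGFB2 are the filled circles, at -0.25 and -0.37, and the triangles of BAMBI and BMP6 lie farthest apart.

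Between the lines carrying the 2 tags, genes of every role but the protease differed, with the largest gaps in NOG, BAMBI, LEFTY1, BMP6 and LEFTY2. With treatment as a covariate, 23 of the 40 genes (57.5%) differed between B212 and A4 by edgeR's quasi-likelihood test, 13 higher and 10 lower in B212. All genes tested gave 51.0%, with 25.2% higher and 25.8% lower in B212, so the share among the pathway genes was near that of all genes. A log2 difference of at least 1 was reached by 6 of the 40, namely LEFTY2 upward and BMP6, LEFTY1, BAMBI, ID3 and NOG downward, against 11.0% of all genes (7.09% higher, 3.96% lower). NOG and LEFTY1 had fewer than 10 counts in both B212 libraries and passed the filter on low counts only through A4. BAMBI, with 8 and 13 counts in B212, also needed its A4 libraries to pass. Under a filter of at least 10 counts in every library 37 genes remained, without NOG, LEFTY1 and BAMBI. Of the 6 genes above, LEFTY2, BMP6 and ID3 were left. The median log2 difference was 0.11 over the 40 genes and 0.0042 over all genes. Libraries of the 2 tags did not overlap in CPM for 32 of the 40 genes (80.0%), against 67.5% of all genes.

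With 1 library left out at a time and no treatment term, 9 of the 23 genes kept their call in all 4 fits: TGFB1, TGFB2, BMP6, LEFTY1, LEFTY2, BAMBI, ID3, NOG and GREM1. The other 14 lost it in at least 1 such fit, and all 23 kept their direction. Dropping the treatment term alone, with all 4 libraries kept, already cost 9 of the named genes their call. A call lost when a library was left out, here and below, therefore cannot be laid to that library alone. Plain library sizes gave 16 higher and 8 lower of the pathway genes, and removal of a length and GC trend gave 10 higher and 12 lower, beside 13 and 10 with the main scaling.

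**Figure D3:**
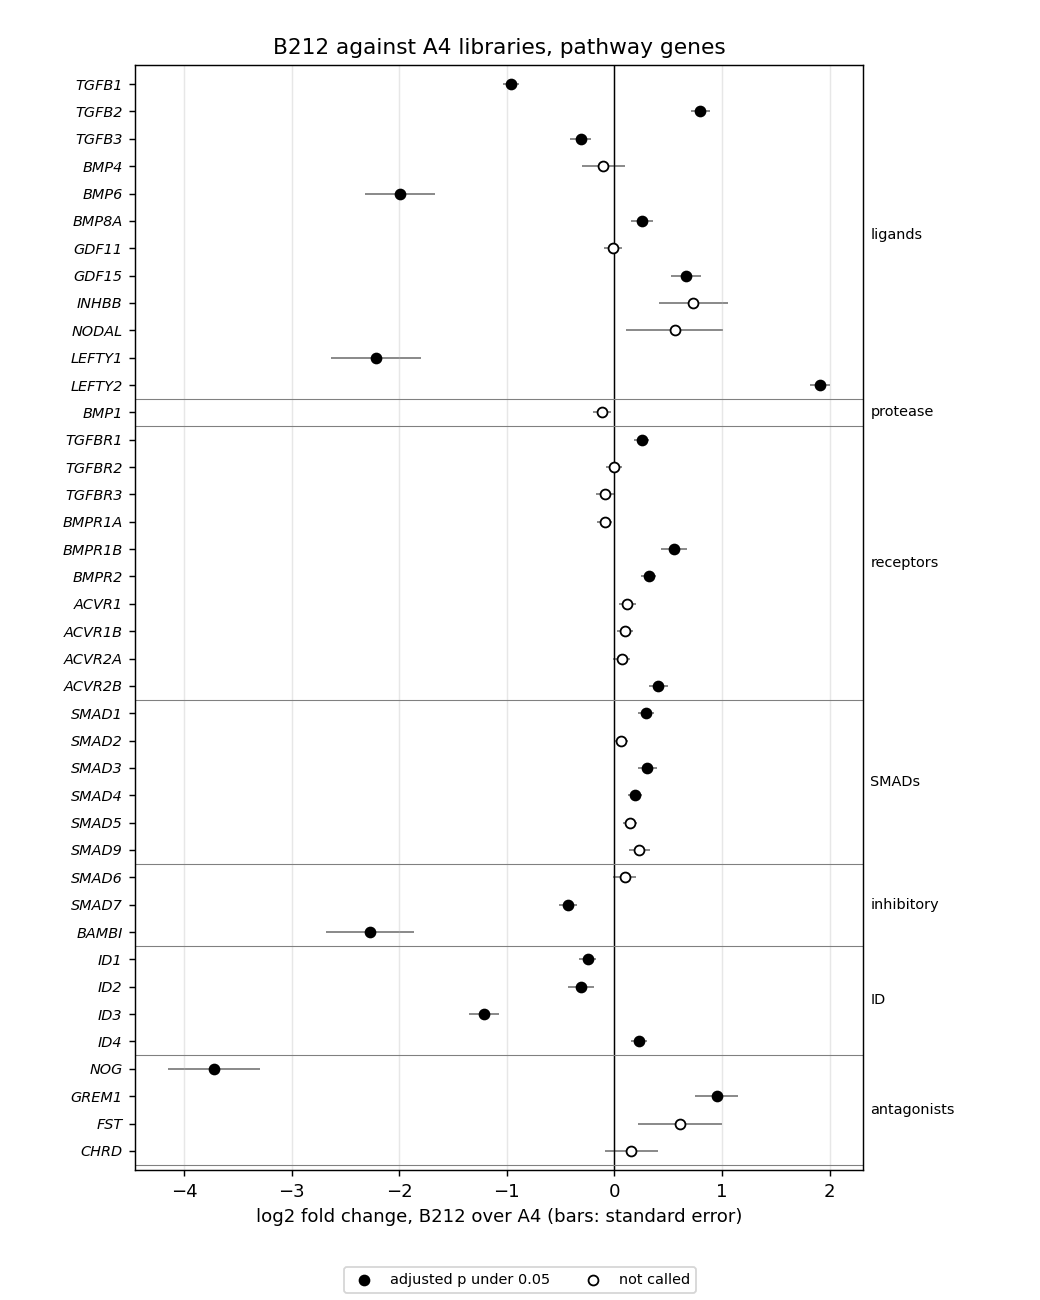
log2 fold change of B212 over A4 for the 40 genes, with standard errors, filled where edgeR's adjusted p was under 0.05. LEFTY2 reaches 1.91 to the right, NOG lies at -3.72 to the left, and all receptor and SMAD genes stay within 0.56 in either direction.

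Among the ligands, 4 were higher and 4 lower in B212 out of 12 tested, against 25.2% higher and 25.8% lower of all genes. The TGF-beta isoforms went opposite ways. TGFB1 was lower in B212, with 39.7 and 34.7 CPM against 80.0 and 65.0 CPM in A4 (log2 difference -0.96, SE 0.075, adjusted p = 1.93e-09). TGFB2 was higher, with 35.0 and 25.8 CPM in B212 against 19.1 and 15.6 CPM in A4 (0.80, SE 0.085, adjusted p = 1.76e-07). For both isoforms the tags did not overlap. The opposite-strand neighbour HNRNPUL1 differed by -0.09, and TGFB2-OT1, which lies in TGFB2 and holds 26.4% of its 50-base words, had 0 counts in every library. TGFB3 was lower in B212 by a smaller amount (-0.31, adjusted p = 0.0122). Per kilobase of transcript, the mean level over the 4 libraries was 19.8 CPM for TGFB1, 4.72 for TGFB2 and 4.71 for TGFB3.

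The LEFTY genes, which encode secreted inhibitors of nodal signalling, also split. LEFTY2, known in the endometrium as a factor of the premenstrual phase, had 8.04 and 7.05 CPM in A4 and 30.5 and 26.4 CPM in B212. Every B212 library was above every A4 library, a 3.77-fold difference (log2 1.91, SE 0.092, adjusted p = 8.27e-13). LEFTY1 had 39 and 39 counts in A4 and 9 and 8 counts in B212 (-2.22, SE 0.42, adjusted p = 1.77e-04), and passed the filter only through A4. Of 50-base words in the LEFTY1 transcript, 54.7% also occur in other genes. Most of these, 52.9%, lie in AL117348.2, which overlaps LEFTY1 on the same strand and is not among the counted genes. Of the words of LEFTY2, 22.0% occur in LEFTY1, so reads may have been split between the LEFTY genes. NODAL, the target of the LEFTY proteins, had 11 to 20 counts per library and was not called (adjusted p = 0.313).

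BMP6, a BMP ligand, had 67 and 88 counts in A4 and 27 and 13 counts in B212, with no overlap (-1.99, SE 0.33, adjusted p = 3.89e-05). GDF15, a distant family member induced by cell stress, was higher in B212, with 4.24 and 5.29 CPM against 2.83 and 3.16 CPM (0.67, adjusted p = 4.13e-04), and its adjusted p was 0.109 without the B212 library with E2. BMP8A was slightly higher in B212 (0.26, adjusted p = 0.0393), and 36.8% of its 50-base words occur in its copy BMP8B, while PPIEL lies on the opposite strand. The calls of BMP8A and TGFB3 were lost in 3 of the 4 fits that left out a library, with adjusted p-values of up to 0.542 and 0.304. BMP4, GDF11 and INHBB were not called, at log2 values of -0.10, -0.01 and 0.73. BMP1, the protease that cleaves procollagens and chordin, was not called either, at 28.2 and 24.3 CPM in A4 and 24.0 and 24.3 CPM in B212.

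Of the 10 receptor genes, 4 were higher in B212 and 0 lower, all by modest amounts. The share called was 40%, against 51.0% of all genes. TGFBR1, the TGF-beta type I receptor, had 103 and 96.3 CPM in A4 and 114 and 123 CPM in B212 (0.25, adjusted p = 0.00603). BMPR2, the BMP type II receptor, had 152 and 146 CPM in A4 and 197 and 175 CPM in B212 (0.32, adjusted p = 7.52e-04). BMPR1B, a BMP type I receptor, had 4.64 and 4.16 CPM in A4 and 6.75 and 6.19 CPM in B212 (0.56, adjusted p = 7.75e-04). ACVR2B, an activin type II receptor, had 21.8 and 18.2 CPM in A4 and 27.2 and 25.8 CPM in B212 (0.41, adjusted p = 5.03e-04). In all 4 genes both B212 libraries were above both A4 libraries. The calls of TGFBR1, BMPR2 and ACVR2B were lost without the A4 library with E2, without the B212 library with DMSO or without the B212 library with E2, and that of BMPR1B without either of the first 2, with adjusted p-values of up to 0.529. The 6 other receptors, TGFBR2, TGFBR3, BMPR1A, ACVR1, ACVR1B and ACVR2A, lay between -0.09 and 0.12 on the log2 scale.

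The SMADs were all at or above the A4 level in B212, and 3 of 6 were called (50%, against 51.0% of all genes). SMAD1, of the BMP branch, had 35.9 and 33.4 CPM in A4 and 44.5 and 40.5 CPM in B212 (0.29, adjusted p = 0.00370). SMAD3, of the TGF-beta branch, had 15.9 and 14.4 CPM in A4 and 19.1 and 18.3 CPM in B212 (0.31, adjusted p = 0.00749). SMAD4 differed by 0.19 (adjusted p = 0.0253). The tags did not overlap for any of the 3. SMAD1 and SMAD3 lost the call in the same 3 fits as TGFBR1, and SMAD4 in all 4, with adjusted p-values of up to 0.650. SMAD2, SMAD5 and SMAD9 were not called, at 0.06, 0.15 and 0.23.

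The inhibitors of signalling inside the cell and at its surface were lower in B212 for 2 of 3 genes, against 25.8% of all genes. SMAD7 fell from 32.3 and 26.7 CPM in A4 to 22.8 and 20.9 CPM in B212 (-0.43, SE 0.084, adjusted p = 2.41e-04), with no overlap. It lost the call in 3 of the fits that left out a library, all but the one without the A4 library with E2, with adjusted p-values of up to 0.187. BAMBI, a pseudoreceptor that lacks the kinase domain, had 57 and 43 counts in A4 and 8 and 13 counts in B212 (-2.27, SE 0.41, adjusted p = 1.13e-04). BAMBI needed its A4 libraries to pass the filter on low counts. SMAD6, which acts mainly on the BMP branch, was not called, with 8.38 and 8.30 CPM in A4 and 8.76 and 9.07 CPM in B212 (0.10, adjusted p = 0.475).

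All 4 ID genes were called between the tags, 3 lower and 1 higher in B212, against 51.0% of all genes called. ID3 had 5.57 and 5.83 CPM in A4 and 2.73 and 2.20 CPM in B212, a level 2.32-fold higher in A4 (log2 difference -1.21, SE 0.14, adjusted p = 6.67e-07). ID2, which ID2-AS1 overlaps on the opposite strand, was lower by less (-0.31, adjusted p = 0.0406), and ID4 was higher, with 39.0 and 40.1 CPM in A4 and 45.9 and 47.0 CPM in B212 (0.23, adjusted p = 0.0160). For all 4 genes the tags did not overlap. ID1 was lower in B212 (-0.25, SE 0.080, adjusted p = 0.0144), but the difference rested on the library with E2: without it the log2 value was -0.05 (adjusted p = 0.902). Apart from ID3, each ID gene lost its call in all 4 fits that left out a library, with adjusted p-values from 0.0727 to 0.902. ID1 led by level, with a mean of 58.6 CPM per kilobase of transcript, ahead of ID4 at 18.3, ID3 at 3.26 and ID2 at 2.76.

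The promoter sequences of 5 of these genes are shown because the ID and inhibitory SMAD genes are textbook SMAD targets: ID1, ID3, SMAD7 and BAMBI, all lower in B212, and SMAD6, which was not called. Each is the 250 bases before the start of the gene, read 5′ to 3′ on the gene's strand, from RefSeq with build GRCh38.p14. Capitals mark the SMAD-binding word GTCT or its reverse complement AGAC, the palindrome GTCTAGAC that holds both, and the GC-rich word GGCGCC known from BMP-responsive genes.
ID1: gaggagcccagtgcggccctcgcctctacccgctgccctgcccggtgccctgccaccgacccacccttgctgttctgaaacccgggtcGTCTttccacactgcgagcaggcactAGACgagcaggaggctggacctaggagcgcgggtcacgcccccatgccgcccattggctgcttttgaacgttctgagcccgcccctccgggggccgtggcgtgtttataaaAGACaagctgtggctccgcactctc
ID3: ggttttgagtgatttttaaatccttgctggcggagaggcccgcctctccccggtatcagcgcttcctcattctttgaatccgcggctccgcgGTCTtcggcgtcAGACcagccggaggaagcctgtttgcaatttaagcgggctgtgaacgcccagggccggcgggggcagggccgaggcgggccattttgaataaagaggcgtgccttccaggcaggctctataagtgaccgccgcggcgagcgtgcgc
SMAD7: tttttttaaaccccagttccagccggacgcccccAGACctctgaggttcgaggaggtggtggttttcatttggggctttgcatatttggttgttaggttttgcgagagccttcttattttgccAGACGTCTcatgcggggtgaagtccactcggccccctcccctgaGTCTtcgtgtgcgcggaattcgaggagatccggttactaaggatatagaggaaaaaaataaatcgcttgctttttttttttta
BAMBI: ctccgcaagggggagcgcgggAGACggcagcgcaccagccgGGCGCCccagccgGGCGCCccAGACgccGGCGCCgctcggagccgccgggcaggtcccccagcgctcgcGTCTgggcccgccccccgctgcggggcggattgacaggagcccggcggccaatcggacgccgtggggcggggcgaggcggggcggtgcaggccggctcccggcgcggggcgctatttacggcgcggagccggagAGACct
SMAD6: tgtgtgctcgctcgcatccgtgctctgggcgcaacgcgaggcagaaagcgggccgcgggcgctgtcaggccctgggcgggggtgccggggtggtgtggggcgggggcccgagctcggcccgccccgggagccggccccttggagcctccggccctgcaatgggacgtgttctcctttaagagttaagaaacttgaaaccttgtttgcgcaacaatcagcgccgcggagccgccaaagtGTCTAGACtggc
The windows are chr20:31605039-31605288 (plus strand) for ID1, chr1:23559502-23559751 (minus strand) for ID3, chr18:48950966-48951215 (minus strand) for SMAD7, chr10:28677271-28677520 (plus strand) for BAMBI and chr15:66701986-66702235 (plus strand) for SMAD6. A promoter entry was found for 38 of the 44 genes. Counted on both strands over the 300-base entries, which end 50 bases past the start, GTCT occurred 3 times for ID1, 2 times for ID3, 4 times for SMAD7 and BAMBI and 2 times for SMAD6. The promoters of ID2, lower in B212, and ID4, higher in B212, are not shown and held GTCT 2 times and 1 time. Such a match was common, present in 84.0% of 35116 promoters with a median of 2. SMAD6 alone of the 7 ID, inhibitory SMAD and BAMBI promoters held GTCTAGAC, a word of 0.202% of promoters, and BAMBI alone held GGCGCC, 3 times, a word of 19.2% of promoters. The palindromic estrogen response element, present in 0.057% of promoters, was in none of the 7 windows. A match is a description of the letters and not a binding site, and a missing match says nothing about the factor.

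The secreted antagonists held the largest tag difference among the 40 genes, that of NOG, which passed the filter on low counts only through A4. NOG had 83 and 45 counts in A4 and 6 and 4 counts in B212, a 13.2-fold higher level in A4 (log2 difference -3.72, SE 0.43, adjusted p = 4.63e-07). GREM1, gremlin, another BMP antagonist, went the other way, with 75 and 83 counts in A4 and 157 and 154 counts in B212 (0.95, SE 0.20, adjusted p = 5.04e-04). For both genes the tags did not overlap. FST and CHRD were not called, at 0.61 and 0.16 on the log2 scale (adjusted p = 0.206 and 0.620).

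Beyond the 44 genes, 91 further genes of the pathway were listed, with earlier results of these data known, and 68 of them passed the filter. With the tag as a block, 9 of the 68 were called for E2, 2 higher and 7 lower, or 13.2% against 9.56% of all genes. THBS1, thrombospondin, an activator of latent TGF-beta, rose from 1243 to 1592 CPM in A4 and from 378 to 692 CPM in B212 (0.61, SE 0.094, adjusted p = 9.12e-04, edgeR). USP15, a deubiquitinase of the receptors and SMADs, rose from 144 to 201 CPM in A4 and from 125 to 144 CPM in B212 (0.34, adjusted p = 0.00804). Both genes were higher with E2 in each tag. The groups of libraries overlapped for THBS1, while for USP15 both E2 libraries lay above both DMSO libraries, by a narrow margin (144.3 CPM in B212 with E2, 144.1 CPM in A4 with DMSO). The lower genes included PMEPA1, a feedback inhibitor and TGF-beta target (-0.36, adjusted p = 0.00458), and FN1, fibronectin (-0.37, adjusted p = 0.00624). LTBP3, which binds latent TGF-beta (-0.29, adjusted p = 0.0149), SKI, a SMAD corepressor (-0.27, adjusted p = 0.0215), and TGFBI, a secreted TGF-beta target (-0.37, adjusted p = 0.0284), were lower too. LTBP4 and NEDD4L complete the 9. With the length and GC trend removed as well, the count was 3 higher and 1 lower: THBS1, USP15 and TLL2, a protease of the BMP1 family (0.31, adjusted p = 0.0228, edgeR), against PMEPA1 (-0.24, adjusted p = 0.0248). The calls of the other 6 lower genes were lost there, with log2 values of -0.25 for FN1 (adjusted p = 0.0549), -0.14 for LTBP3 (0.157), -0.11 for SKI (0.261), -0.30 for TGFBI (0.0782), -0.13 for LTBP4 (0.319) and -0.18 for NEDD4L (0.0760). TGFBI was also not called in the blocked fits with DESeq2 (adjusted p = 0.0641), DESeq2 size factors (0.0567) and limma-voom (0.0604). None of the 9 was called without the block, where all had an adjusted p of 1.00. That fit recovered 0 of 200 changed genes in simulated counts with tag differences as measured.

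Between the tags, the list of TGF-beta and BMP target genes had the largest median absolute log2 difference of the pathway lists, 1.05. The list of further ligands, with 8 genes tested, was close at 1.03, and all genes tested had 0.28. Of the 17 target genes tested, 11 were lower and 4 higher in B212, or 88.2% called. All genes tested gave 51.0%, with 25.8% lower and 25.2% higher. A log2 difference of at least 1 was reached by 8 of the lower and 2 of the higher target genes. Over all genes that share was 11.0% (3.96% lower, 7.09% higher). The signed median of the target genes was -0.91 against 0.0042 over all genes tested. The list was chosen with earlier results of these data known, so its shares and medians are a description and no test. TGFBI had 50.3 and 41.3 CPM in A4 and 2.33 and 1.54 CPM in B212 (-4.57, SE 0.11, adjusted p = 1.26e-17). It is a classical target of the TGF-beta branch, and every A4 library was above every B212 library. CTGF, a matricellular protein (-1.88, adjusted p = 9.19e-13), TAGLN, an actin-binding protein of smooth muscle (-1.36, adjusted p = 3.95e-11), and HAS2, a hyaluronan synthase (-2.93, adjusted p = 8.40e-11), were lower in B212 as well. SNAI2, a repressor of epithelial genes, had 27 and 48 counts in A4 and 0 in both B212 libraries, where a count of 0 allows up to 3. SNAI2 passed the filter on low counts only through A4, and it is counted among the 8 lower genes above. The targets higher in B212 by at least 1 were CDKN1A, a cell cycle inhibitor (1.05, adjusted p = 1.36e-09), and DLX5, a homeobox gene (1.06, adjusted p = 3.47e-04). DLX5 had an adjusted p of 0.0602 without the B212 library with DMSO. The fibroblast marker sum was also higher in A4, with DCN at 0 to 1 and LUM at 0 to 5 counts per library, and its part in these differences was not tested.

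**Figure D4:**
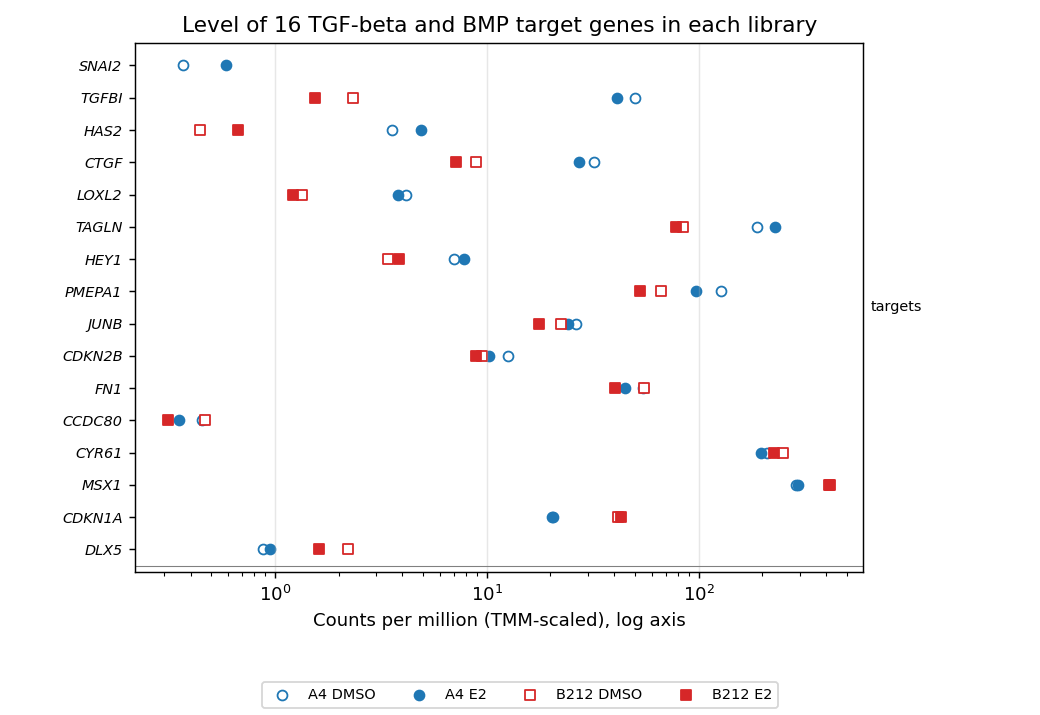
Level of 16 of the tested target genes in the 4 libraries, in CPM on a log axis; circles are A4, squares are B212, open symbols DMSO and filled symbols E2. TGFBI, HAS2 and CTGF separate widely by tag, and the B212 libraries of SNAI2, at 0, cannot be drawn on the log axis.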

How the data were processed

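RNA was sequenced from 4 samples, 2 treated with DMSO and 2 with E2; per the labels' protocols, poly(A)-selected stranded libraries were made with 500 ng of input. The deposited values are raw read counts per gene symbol, made by the authors; the submitters' processing notes list HISAT2, SAMtools, featureCounts, DESeq2 and hg19, without roles or versions. The strand setting and annotation are not given in the sources used here, so overlapping and antisense genes are uncertain. Another 4 columns of per-sample values were not used.

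Columns were grouped by the treatment in their names. Genes were kept by filterByExpr (minimum count 10), scaled by TMM and tested with edgeR 4.0.16 (glmQLFit, glmQLFTest) in R 4.3.3, with Benjamini-Hochberg adjustment over all 15599 genes tested and a threshold of 0.05. E2 was compared with DMSO without a block, and B212 with A4 with treatment as a covariate. Standard errors are the log2 fold change over the square root of F. Log2 CPM within a tag had a prior count of 2. Total counts per library allow small changes to be seen in well-expressed genes; counting intervals (95%) cover counting error only.

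The pairing comes from the tags in the column names. Deviations of the A4 libraries from their group means correlated across genes (Pearson r = 0.871, a single independent value with 2 groups of 2), so the fit with the tag as a replicate block was run too and is printed where it changes a call. In simulated counts with tag differences as measured (15480 genes, 200 changed by 1 on the log2 scale), the E2 fit without the block recovered 0 and that with it 200, with 0 and 4 false calls. Without tag differences (15425 genes), each recovered 199, with 16 and 17 false calls.

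The 44 genes and all lists were chosen with earlier results of these data known. Genes named in full are the members called in any fit. From the other pathway lists they are up to 5 per direction by smallest p for E2 with the block, and between tags up to 5 per direction with a log2 difference of at least 1 and a mean of at least 50 counts. One gene that this rule selects is not reported here. SNAI2, TLL2, HNRNPUL1 and the genes of the closing section were chosen after their values were seen. Members with an unadjusted p under 0.05 in the blocked fit were added. Alternatives covered scaling, filters, DESeq2 1.42.0, limma 3.58.1 (voom), a length and GC trend (mgcv 1.9.3, GENCODE 29 transcripts, 93.5% of tested genes) and leaving out libraries. Shared 50-base words came from the same transcripts, promoters from RefSeq (GRCh38.p14). Figures used Python 3.11.15 with matplotlib 3.10.9.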

Additional observations from a re-analysis of the deposited data

Results flagged for a closer look

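In 18 of the 40 genes the E2 library was above the DMSO library with one tag and below it with the other. The values below are the log2 difference of E2 over DMSO in B212 minus that in A4. The differences were not tested, since each tag has 1 library per treatment.

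For 10 of the 18 the interval from counting error alone excluded 0. BAMBI had the widest gap, 1.31, lower with E2 in A4 and higher in B212, and rests on 8 to 57 counts per library. BMP6 followed at -0.977, higher with E2 in A4 and lower in B212, on 13 to 88 counts. ID3 had -0.375, BMP8A 0.278, BMP1 0.235 and TGFBR1 0.199. ACVR2A had -0.171, BMPR1A -0.143, GDF11 0.143 and SMAD5 -0.0585.

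For the other 8 that interval included 0. INHBB had -0.653 and NODAL 0.502, on few counts. BMP4 had 0.282, GREM1 0.206 and LEFTY1 0.196. TGFBR3 had -0.138, ID2 -0.133 and SMAD6 0.0639.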

How the results depend on the processing

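For E2 against DMSO, 0 genes were called without a block in all alternatives except DESeq2, which called 1 (RPSAP58, lower). The replicate block raised this to 1492 (956 higher, 536 lower), or 710 with the length and GC trend removed, 562 with DESeq2 (7561 genes, 20 of the 40 among them, had no adjusted p there), 717 with DESeq2 size factors, 1138 with limma-voom and 1686 with plain library sizes (911 higher, 775 lower); the last 2 alternatives were added after seeing the data. Of the pathway genes, 2 were called with the block (TGFB1, TGFB2), 2 with the trend removed (TGFB2, ID1), 1 with DESeq2, DESeq2 size factors or limma-voom (TGFB2) and 3 with plain library sizes (TGFB1, TGFB2, ID1), all lower.

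Leaving out 1 library without a block gave 0 calls (0 to 0 pathway genes). It leaves the tags unbalanced, and log2 values then ran from -0.80 to 0.33 for TGFB1, -0.79 to 0.12 for TGFB2, -1.45 to 1.05 for LEFTY2, -0.44 to 0.063 for SMAD7, -3.43 to 2.09 for NOG, -0.25 to 1.59 for THBS1, -0.89 to 0.18 for PMEPA1 and -4.11 to 3.20 for TGFBI.

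Between the tags, 7950 genes were called; 4456 without the treatment term, and 3094 to 5639 when a library was also left out. Of the pathway genes, 23 became 14 and 10 to 17, with 10 without either B212 library. Plain library sizes gave 4761 higher and 3176 lower, beside 3927 and 4023. No difference between tags of a named gene changed sign, and 25 of 237 values outside the fits that left out a library lost the call. Low counts limit BMP6, LEFTY1, BAMBI, NOG and FST.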

Other observations

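Among ligands outside the 44 genes, INHBE, the activin beta E subunit, was the most abundant per kilobase of the 8 tested. It had 53.9 and 56.8 CPM in A4 and 24.1 and 26.4 CPM in B212, DMSO before E2, so that every A4 library was above every B212 library (log2 difference -1.13, SE 0.078, adjusted p = 2.87e-10, edgeR). INHBA, by contrast, had at most 1 count per library. AMH, anti-Müllerian hormone, was higher in B212, with 2.91 and 4.04 CPM against 1.61 and 2.00 CPM (0.94, adjusted p = 6.00e-05, edgeR). Neither passed the E2 test in the blocked fit (adjusted p = 0.449 and 0.113, edgeR).

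Secreted binding proteins also split by tag. SOSTDC1, a BMP and WNT antagonist, had 30.5 and 30.9 CPM in A4 and 14.6 and 14.5 CPM in B212 (-1.08, adjusted p = 2.04e-09, edgeR). CHRDL1, a chordin-like BMP antagonist, was lower in B212 as well (-1.25, adjusted p = 2.92e-09, edgeR). TWSG1, a BMP-binding partner of chordin, was higher, with 378 and 370 CPM against 224 and 231 CPM (0.71, adjusted p = 6.06e-08, edgeR). For SOSTDC1, CHRDL1 and TWSG1 no library of one tag overlapped the other. Of the 15 secreted modulators tested, 5 were higher and 6 lower in B212, against 25.2% and 25.8% of all genes. Their median was -0.07 against 0.0042 over all genes.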
